A study of Rattus norvegicus with 20 samples.

Results

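Astrocyte marker genes were followed in the rat supraoptic nucleus (SON), the hypothalamic nucleus whose magnocellular neurons make vasopressin and oxytocin. The set held 10 genes of the 32402 Ensembl genes in the tables. They were Gfap, Vim, Slc1a2, Slc1a3, Glul, Aqp4, S100b, Aldh1l1, Aldoc and Sox9, taken by their listed symbols and joined by Ensembl identifier where a table gave no symbol. All 10 had enough reads to be tested in every comparison. RNA came from 20 male Wistar Han rats, 5 in each of 4 groups. Adult rats were 3 months old and aged rats 18 months old, and each age had a euhydrated group (EH, free access to water) and a dehydrated group (DH, food but no water). The sample labels give the dehydration as 2 days, and the methods of the study give a longer time. The material was bilateral punches of the SON, so that every library mixed neurons, glia and vessels. In such bulk samples fewer astrocytes and less RNA per astrocyte cannot be told apart. The methods of the study state that both ages were handled side by side, with punches, RNA and sequencing done at one time, and the adult data had been published before.

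Astrocytes in the SON wrap the cell bodies and dendrites of magnocellular neurons, and it is well known that they draw back their processes when an animal is dehydrated. They clear glutamate from the extracellular space, convert it to glutamine, buffer potassium and water, and line the blood vessels with endfeet. Gfap and Vim encode intermediate filament proteins, Slc1a2 and Slc1a3 the glutamate transporters GLT-1 and GLAST, and Glul glutamine synthetase. Aqp4 encodes the water channel of the endfeet and S100b a calcium-binding protein. Aldh1l1 encodes a cytosolic enzyme of folate metabolism, Aldoc the brain form of the glycolytic enzyme aldolase, and Sox9 a transcription factor of the glial lineage. Some are not exclusive to astrocytes. Vim is also made by vascular, meningeal and ependymal cells, and S100b and Glul are also found in oligodendrocytes.

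Between 24268398 and 30348118 reads per rat fell on genes. The lowest read number of a member in any rat was 602, for Sox9, and the highest was 61857, for S100b. Together the 10 genes held 0.842% ± 0.0414 of the reads in adult EH, 0.830% ± 0.0461 in adult DH, 0.831% ± 0.0591 in aged EH and 0.827% ± 0.0391 in aged DH (SD, n = 5 each). These shares overlapped in all groups, with a range of 0.755 to 0.909% over the rats. Values below are normalized counts, which are read counts divided by the library's size factor. The size factors were set within each comparison's own table, so the same adult EH rat carries slightly different values in 2 tables. Log2 fold changes (LFC) come from limma on log2 of the normalized count plus 1, with two-sided p-values adjusted over all genes tested and a threshold of 0.05, past which a gene is said to be called. Nothing in the labels says more of the replicates than that they are separate samples. The methods of the study state that rats were housed in groups and that whole cages were assigned at random to EH or DH. The labels do not give the cage of a rat, so rats were treated as independent.

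**Figure D1:**
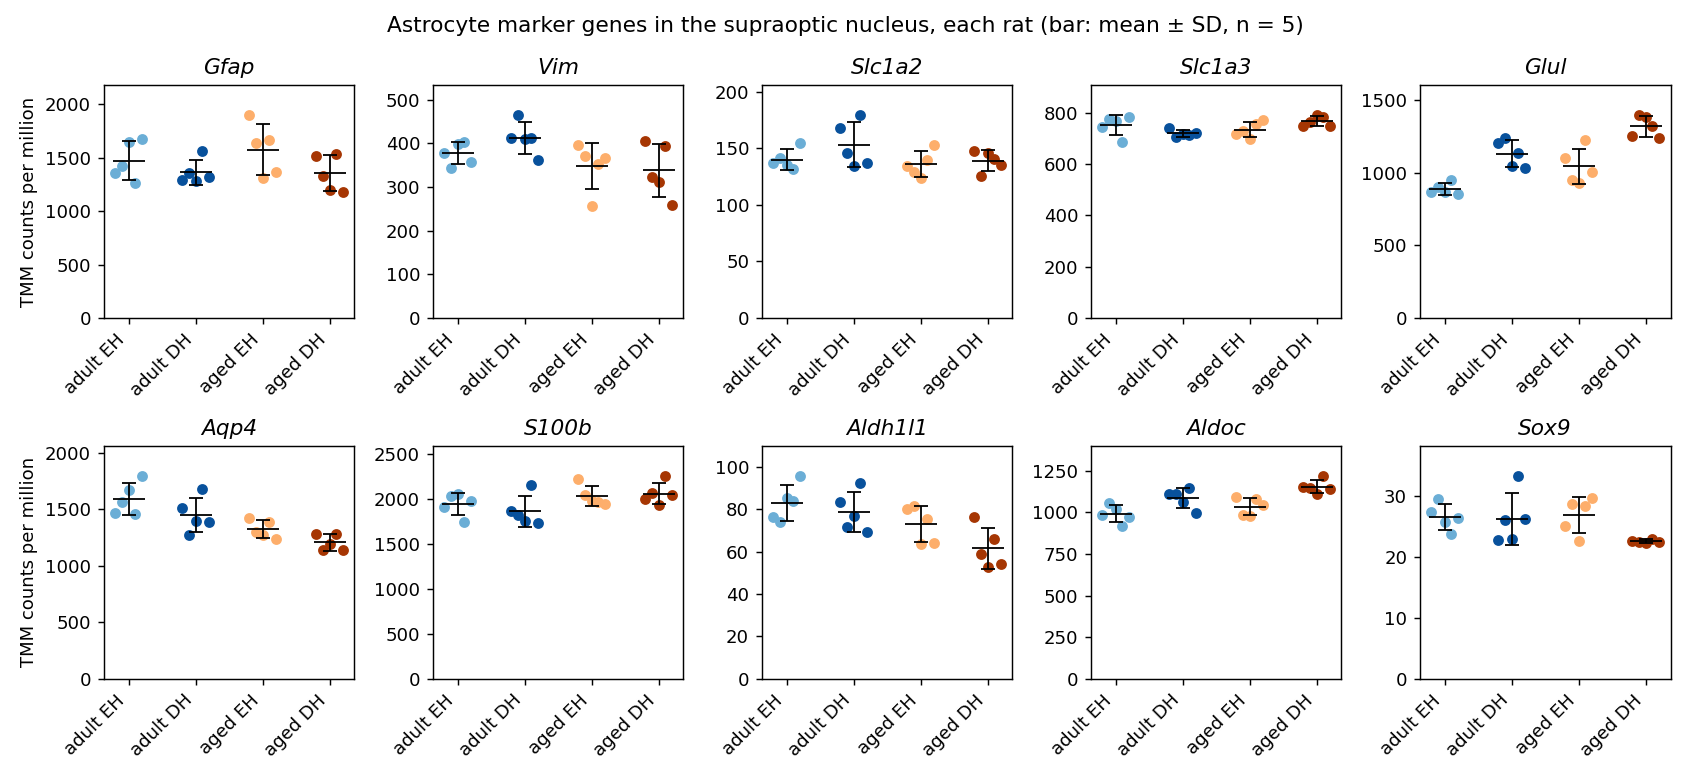
Level as CPM, which are reads brought to a common library total and scaled over all 20 libraries by the trimmed mean of M-values (TMM), of the 10 astrocyte marker genes in each rat, with black bars for the mean ± SD of 5 rats. Every axis starts at 0. Glul has its lowest mean in adult EH (888) and its highest in aged DH (1320), whereas Aqp4 runs the other way, from 1591 in adult EH to 1207 in aged DH.

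Ageing was examined as aged EH against adult EH. Of the 10 genes, Aqp4 alone passed the threshold and was lower with age, and 9 did not pass. Of all 15369 genes tested 5.99% passed in this comparison, and 3.30% were lower. The median LFC of the 10 genes was -0.01, beside 0.00 over all genes. With all libraries brought to equal totals, 302 of 1049 genes called were higher in aged EH, in place of 414 of 921.

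Aqp4 stood at 41248, 43728, 46548, 40936 and 50358 in the adult EH rats, and at 40023, 36403, 35669, 38726 and 34549 in the aged EH rats. Every aged EH rat lay below every adult EH rat. The means were 44563 ± 3949 and 37074 ± 2249 (SD, n = 5), an LFC of -0.26 with a standard error (SE) of 0.0584 and an adjusted p of 0.018 by limma. The groups did not overlap for 6.38% of all genes tested. The call held when any 1 of the 10 rats was left out. It was lost when the variance was not allowed to follow the mean (adjusted p = 0.0684 by limma). It was also lost with the replicate number as a block (0.0541 by limma) and with an LFC limit of 0.5.

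Of the 5 aged EH rats 4 lay above every adult EH rat in Glul, the lowest of these narrowly (26762 beside 26736). Glul did not pass the threshold. Its values were 24336, 25173, 24225, 26736 and 23918 in adult EH and 30954, 26762, 25964, 34274 and 28201 in aged EH. The ranges met, since the lowest aged EH rat fell below the highest adult EH rat. The means were 24878 ± 1138 and 29231 ± 3399 (SD, n = 5), with an LFC of 0.23 (95% confidence interval 0.09 to 0.37) and an adjusted p of 0.0572 by limma. Glul passed in 5 of 22 alternatives, among them DESeq2 (adjusted p = 0.0114) and edgeR on all 20 rats (adjusted p = 0.0314). Of the 10 fits that left out 1 rat it passed in 1, without aged EH rat 4 (0.031 by limma). It did not pass in the other 17 alternatives. These included edgeR on the 10 rats of this comparison (adjusted p = 0.0531), equal library totals (0.101 by limma) and variance not following the mean (0.143 by limma).

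The filament genes gave no call with age. Gfap averaged 44133 ± 6793 in old and 41265 ± 5082 in young euhydrated rats (SD, n = 5), and its LFC had an interval of -0.12 to 0.31. Vim was 9763 ± 1504 and 10551 ± 717 (SD, n = 5), with an interval of -0.32 to 0.07. The glutamate transporters had the narrower intervals of -0.17 to 0.07 for Slc1a2 and -0.12 to 0.05 for Slc1a3. For S100b the interval was -0.04 to 0.17, for Aldoc -0.03 to 0.16 and for Sox9 -0.15 to 0.18. Aldh1l1 had an LFC of -0.19 (interval -0.37 to -0.01), with an unadjusted p of 0.0384 and an adjusted p of 0.212 by limma.

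Some markers of other cell types were called with age in the same libraries, where 5.99% of all genes tested were called. Of 8 oligodendrocyte markers 5 were lower in aged EH, among them Cldn11, a tight junction protein of myelin, with an LFC of -0.62. Their summed level ran from 243374 to 295144 in aged EH, against 272625 to 398579 in adult EH. Of 5 meningeal fibroblast markers tested 3 were lower, Col1a1 by an LFC of -1.66, and the sums of 3598 to 6563 and 9204 to 10671 did not overlap. Of that list Col1a2 and Ogn had a mean under 10 reads. Of 7 microglial markers 3 were higher, and their sums lay at 7408 to 8501 with age, against 6144 to 7101. There was 1 lower marker each among 5 of endothelium (Cdh5), 6 of mural cells (Pdgfrb) and 4 of oligodendrocyte precursors (Pdgfra). Clic6 alone was called, as higher, among 5 of choroid plexus, whose median LFC was -0.29. The choroid plexus sums overlapped, at 363.3 to 738.2 in aged EH and 437 to 993.6 in adult EH. No marker was called among 7 of neurons, 4 of ependyma and 3 of tanycytes, nor were Avp and Oxt. Oxt came close, with an LFC of 0.26 (interval 0.10 to 0.42, adjusted p = 0.0524 by limma). The study itself reports Oxt as higher with age. The part of these cell types in the Aqp4 result was not tested.

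Dehydration of adult rats was examined as adult DH against adult EH. Glul alone of the 10 genes passed, and was higher in DH. The background was 12.7% of 15280 genes called, with 7.67% called higher. The median LFC of the 10 genes was -0.04, beside -0.01 over all genes. With equal library totals, 890 of 2051 genes called were higher in DH, in place of 1172 of 1934.

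The adult EH rats had Glul values of 23352, 24188, 23199, 25647 and 22945, and the adult DH rats had 32317, 33414, 28240, 30648 and 27825. Every DH rat lay above every EH rat, and the groups were without overlap for 10.9% of all genes tested. The means were 23866 ± 1099 and 30489 ± 2454 (SD, n = 5), a 1.28-fold difference with an LFC of 0.35 (SE 0.0509, adjusted p = 5.56e-04 by limma). The call was kept without any 1 of the rats, where the adjusted p by limma did not exceed 0.00205.

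Dehydration of aged rats was examined as aged DH against aged EH, and here 3 of the 10 genes passed. Glul and Aldoc were higher and Sox9 was lower, against a background of 7.29% of 15346 genes called, with 4.05% higher and 3.25% lower. The median LFC of the 10 genes was -0.02, beside 0.00 over all genes. With equal library totals, 534 of 1128 genes called were higher in DH, in place of 621 of 1119.

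Glul stood at 30908, 26723, 25957, 34242 and 28022 in the aged EH rats and at 34825, 38904, 38268, 36999 and 34570 in the aged DH rats. The groups did not overlap, although the highest EH rat came close to the lowest DH rat. No overlap was found for 7.05% of all genes tested. The means were 29170 ± 3405 and 36713 ± 1966 (SD, n = 5), a 1.26-fold difference with an LFC of 0.34 (SE 0.0673, adjusted p = 0.00769 by limma). The call was kept without any 1 of the rats.

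Sequence upstream of Glul and Aldoc is shown because these genes were the members called higher in dehydration. RefSeq (assembly GRCr8) listed 14 start-site windows for 9 of the 10 genes. The 250 bases before each start were searched on both strands for 6 motifs by their letters. The AP-1 motif was taken as TGANTCA and the cyclic AMP response element as TGACGTCA. The core of the glucocorticoid response element was taken as ACANNNTGT and the motif of SOX factors as ACAATG. The TATA box was read as TATAAA, and the site of STAT factors was read as TTCNNNGAA. Capitals mark a match. The windows are chr13:68519250-68519499 and chr13:68575816-68576065 for the 2 listed starts of Glul and chr10:63715294-63715543 for Aldoc, each on the plus strand and printed from 5′ to 3′.
Glul start 1: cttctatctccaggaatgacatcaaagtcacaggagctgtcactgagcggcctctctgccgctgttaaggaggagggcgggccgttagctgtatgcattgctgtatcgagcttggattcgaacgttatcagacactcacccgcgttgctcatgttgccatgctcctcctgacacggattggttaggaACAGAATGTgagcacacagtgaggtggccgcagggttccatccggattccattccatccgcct
Glul start 2: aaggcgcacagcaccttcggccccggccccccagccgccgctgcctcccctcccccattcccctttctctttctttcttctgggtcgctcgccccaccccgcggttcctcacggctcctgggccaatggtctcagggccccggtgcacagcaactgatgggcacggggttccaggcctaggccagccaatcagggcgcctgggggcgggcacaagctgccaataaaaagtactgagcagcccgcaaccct
Aldoc start: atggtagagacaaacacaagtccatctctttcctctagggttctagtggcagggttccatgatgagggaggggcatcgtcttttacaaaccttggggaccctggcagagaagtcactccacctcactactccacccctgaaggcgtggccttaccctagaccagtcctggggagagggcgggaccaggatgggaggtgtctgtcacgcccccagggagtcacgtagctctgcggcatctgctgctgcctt

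The first Glul window held the ACANNNTGT letters as ACAGAATGT, from 63 to 55 bases before the start, and no other motif overlapped it. These letters were in 5.81% of all 33469 windows, and among the members also in 1 window of Slc1a2. The second Glul window and the Aldoc window held none of the 6 motifs. The GC content was 54.4% and 67.2% in the Glul windows, beside a median of 51.2% over all windows. Which start was used in these rats was not measured, and a match by letters is not a bound site.

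Aldoc was 30612, 27543, 27377, 30035 and 28954 in the aged EH rats and 31893, 32004, 30714, 33964 and 31739 in the aged DH rats. Every DH rat lay above every EH rat, by a small margin. The means were 28904 ± 1448 and 32063 ± 1180 (SD, n = 5), a 1.11-fold difference with an LFC of 0.15 (SE 0.0411, adjusted p = 0.0399 by limma). The call was lost in 8 of the 10 fits that left out 1 rat, in which the adjusted p by limma ran from 0.0283 to 0.102. It was kept without aged EH rat 1 or aged DH rat 3. With all rats it was also lost with equal library totals (adjusted p = 0.0609 by limma), with no filter on low values (0.0644), when the variance was not allowed to follow the mean (0.0946) and with the replicate number as a block (0.0794). In adult rats Aldoc did not pass, with means of 26605 ± 1324 in EH and 29166 ± 1546 in DH (SD, n = 5) and an LFC of 0.13 (interval 0.04 to 0.22, adjusted p = 0.0578 by limma). It passed there without adult EH rat 2 or without adult DH rat 5.

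Sox9 was 705.5, 802.6, 632.4, 791.7 and 822.6 in the aged EH rats and 627.1, 627.2, 614.5, 641.7 and 627.1 in the aged DH rats. The groups overlapped, because aged EH rat 4 fell among the DH rats. The means were 751 ± 80.0 and 627.5 ± 9.61 (SD, n = 5), with an LFC of -0.25 (SE 0.0673, adjusted p = 0.0361 by limma). The SD of the aged DH rats was smaller than the 25.1 that counting error alone would give at this depth, the only such case among 40 member and group combinations. The call was lost in 8 of the 10 fits that left out 1 rat, with an adjusted p by limma of 0.00395 to 0.0961, and also with edgeR on all 20 rats or when the variance was not allowed to follow the mean. It was kept without aged EH rat 1 or 4. In adult rats the LFC of Sox9 was -0.03, with an interval of -0.22 to 0.17. The study lists Sox9 primers for its quantitative PCR of selected genes, done in a separate cohort of rats. Those values were not used here.

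The other members gave no call with dehydration at either age. Gfap had an LFC of -0.10 in adult rats (interval -0.27 to 0.06) and of -0.22 in aged rats (interval -0.44 to -0.01, adjusted p = 0.219 by limma). Vim had an LFC of 0.13 in adult rats (interval 0.00 to 0.26) and of -0.06 in aged rats (interval -0.32 to 0.21). For the transporter Slc1a2 the values were 0.12 (interval -0.04 to 0.28) and 0.03 (interval -0.09 to 0.14), and for Slc1a3 -0.06 (interval -0.13 to 0.02) and 0.06 (interval -0.02 to 0.13). Aqp4 had nearly equal estimates of -0.13 (interval -0.29 to 0.02) and -0.14 (interval -0.25 to -0.03, adjusted p = 0.114 by limma). S100b was at -0.06 (interval -0.19 to 0.06) and 0.01 (interval -0.10 to 0.12). Aldh1l1 was at -0.08 (interval -0.25 to 0.09) and -0.26 (interval -0.47 to -0.04, adjusted p = 0.145 by limma), and the latter passed without aged DH rat 1 (adjusted p = 0.0425 by limma).

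**Figure D2:**
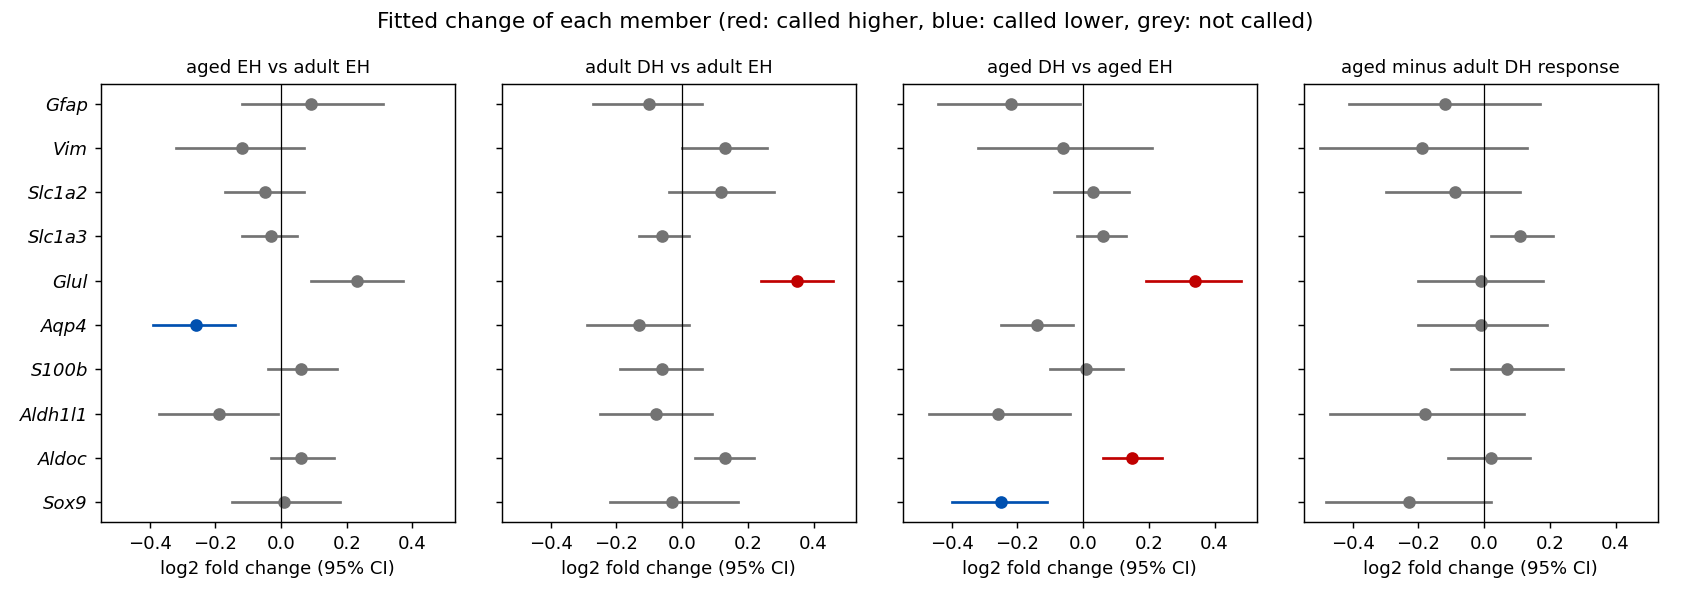
Log2 fold change of each astrocyte marker gene (points) with its 95% confidence interval (lines) in the 3 comparisons, and the aged minus the adult response to dehydration in the right panel. Red points were called higher and the blue ones lower at an adjusted p under 0.05. Glul is at 0.35 and 0.34 in the dehydration panels, and no gene is called in the right panel.

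Markers of other cell types were read beside these results. Their counts are to be set against the shares over all genes tested, 12.7% called in adult DH and 7.29% in aged DH. In adult DH the sums of the oligodendrocyte markers were 249643 to 319646, beside 261075 to 382358 in adult EH, and 1 of 8 markers (Cnp) was lower. In aged DH they were 266497 to 316975, beside 243308 to 294698 in aged EH, and 1 of 8 (Mobp) was higher. Avp, the vasopressin gene, was higher in adult DH with an LFC of 0.48 (adjusted p = 0.0221 by limma), and in aged rats its LFC was 0.21 (adjusted p = 0.502). Oxt was not called at either age. In adult DH, and not in aged DH, 1 marker was called in each of 4 more lists, Nefl lower among 7 of neurons, Slc6a13 higher among 5 of meningeal fibroblasts, Scn7a higher among 3 of tanycytes and Clic6 lower among 5 of choroid plexus. Of 4 markers of oligodendrocyte precursors, Cspg4 was higher in adult DH and C1ql1 lower in aged DH. None of 7 microglial, 5 endothelial, 6 mural and 4 ependymal markers was called at either age. No gene was called for the difference between the ages by limma, so a difference between the ages was not shown for these markers. The part of these cells in the Glul, Aldoc and Sox9 results was not tested.

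Whether the response to dehydration differed with age was tested as the aged response less the adult response over all 20 rats. None of the 10 genes passed, and none of 15326 genes tested did by limma or by edgeR. The background was 0% of genes called by limma, with 1522 genes (9.93%) under 0.05 before adjustment. DESeq2 called 56 genes, no member among them. For Glul the difference was -0.01, with an interval of -0.20 to 0.18. For Aldoc it was 0.02 (interval -0.11 to 0.14) and for Aqp4 -0.01 (interval -0.20 to 0.19). Sox9, which was called in aged rats only, had a difference of -0.23 (interval -0.48 to 0.02, adjusted p = 0.555 by limma), so that a difference between the ages was not shown. Slc1a3 was the only member under 0.05 before adjustment by limma, with a difference of 0.11 (interval 0.02 to 0.21, adjusted p = 0.44 by limma).

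Age was also compared among dehydrated rats, as aged DH against adult DH, in a comparison added after the data were seen. Reads of the 10 rats were tested with edgeR, and levels are in CPM after TMM scaling. Of 15284 genes tested 10.9% were called, and of the members 3 were. Aqp4 was lower in aged DH, at 1207 ± 72.1 beside 1450 ± 153 (SD, n = 5), with an LFC of -0.27 (interval -0.41 to -0.13) and an adjusted p of 0.0173 by edgeR. Glul was higher, at 1320 ± 71.9 beside 1133 ± 93.0 (SD, n = 5), with an LFC of 0.21 (interval 0.10 to 0.33) and an adjusted p of 0.0236 by edgeR. Aldh1l1 was lower, at 61.7 ± 9.65 beside 78.7 ± 9.43 (SD, n = 5), with an LFC of -0.36 (interval -0.57 to -0.14) and an adjusted p of 0.0339 by edgeR. When 1 rat was left out, Aqp4 stayed called in all 10 fits, Glul in 6 and Aldh1l1 in 4. The call of Glul was lost without adult DH rat 3 or 5 or aged DH rat 2 or 3, and that of Aldh1l1 without adult DH rat 1, 3 or 4 or aged DH rat 2, 3 or 6. The comparisons share rats, since adult EH serves both ageing and adult DH, aged EH both ageing and aged DH, and the DH groups a dehydration comparison and this one, so their values are not independent.

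On the common scale the mean level of Glul was lowest in adult EH at 888 ± 40.3, then 1044 ± 123 in aged EH, 1133 ± 93.0 in adult DH and 1320 ± 71.9 CPM in aged DH (SD, n = 5). The neighbours aged EH and adult DH differed by less than the SD of aged EH. The order for Aqp4 was the reverse for age, with 1207 ± 72.1 in aged DH, 1323 ± 79.7 in aged EH, 1450 ± 153 in adult DH and 1591 ± 141 in adult EH. Here aged EH and adult DH differed by less than the SD of adult DH, and so did adult DH and adult EH.

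The members were also set against one another within each rat, as the log2 level of a gene less the mean log2 level of the other 9. By this measure Glul was higher in DH by 0.36 in adult and by 0.41 in aged rats, without overlap between the groups. Aldoc was higher by 0.21 in aged DH without overlap. Aqp4 had a difference of -0.27 with age and of -0.18 in adult DH, again without overlap in either case. The groups overlapped for all the other members in the 3 comparisons. On its own normalized counts Aqp4 overlapped between adult DH and adult EH (adjusted p = 0.247 by limma). The other 9 genes it was set against include Glul, which was called higher in adult DH. No share over all genes was worked out for this measure. These are descriptions and were not tested.

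Rats of a group often stood high or low in many of the 10 genes at once. Adult DH rat 4 was the highest of its group for 7 members, with a median deviation of 0.21 on the log2 scale from the group mean. Aged EH rat 4 was the lowest for 8 and adult EH rat 5 for 7. Aged DH rat 5 lay above its group's mean for all 10 genes. Glul went another way in some of these rats, since adult EH rat 5, low in most members, had the highest Glul value of its group. Adult DH rat 4, aged EH rat 4 and adult EH rat 5 had the fewest reads on genes of their groups, at 24268398, 27111713 and 25605517. Aged DH rat 5, at 28212382, did not. The part of read depth was not tested.

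**Figure D3:**
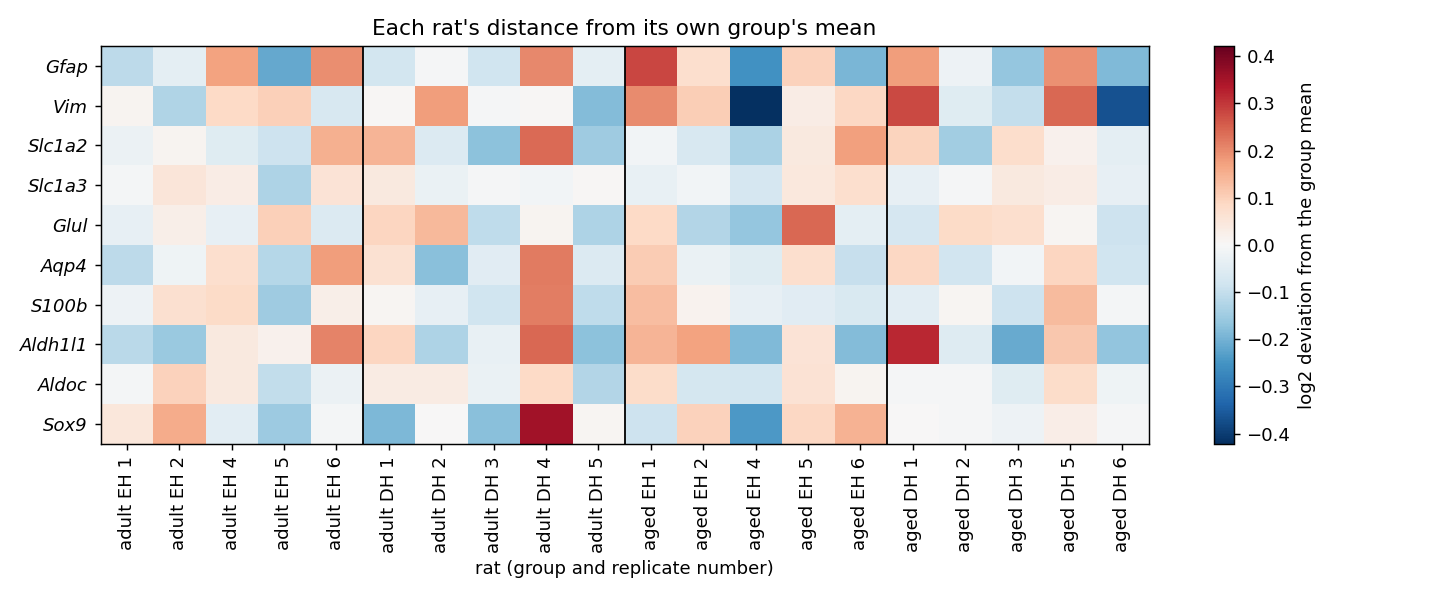
Log2 deviation of each rat from the mean of its own group for the 10 astrocyte marker genes (rows), with black lines between the 4 groups of 5 rats. Red is above and blue below the group mean. The column of adult DH rat 4 is mostly red and that of aged EH rat 4 is blue.

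Genes that work beside the members were counted from lists. The shares over all genes tested, beside which these counts are to be read, were 5.99% called with age, 12.7% in adult DH and 7.29% in aged DH. Of 15 other genes of glutamate and glutamine handling, 2 were higher and 4 lower with age. Slc38a3, a glutamine transporter of astrocytes, had an LFC of -0.25 and Slc7a11, the cystine-glutamate exchanger, of -0.53. In adult DH 1 was higher and 2 were lower, and in aged DH 4 were higher. Slc38a3, lower with age, was among the latter at 0.15. Slc1a4, a neutral amino acid transporter, was higher at both ages, with an LFC of 0.40 in adult and 0.36 in aged rats. Glud1, glutamate dehydrogenase, was lower in adult DH at -0.18.

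Of 14 genes of folate metabolism 3 were higher and none lower in each of the 3 comparisons, and they were Shmt2, Mthfd2 and Aldh1l2 every time. These encode enzymes of the mitochondrial branch, and Aldh1l2 is the mitochondrial relative of the member Aldh1l1. Aldh1l2 had LFCs of 0.61 with age, 0.85 in adult DH and 0.70 in aged DH, and Mthfd2 had 0.58, 0.73 and 0.67. The estimates for Aldh1l1 were -0.19, -0.08 and -0.26, none of them called.

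Of 22 genes of glycolysis, glycogen and lactate handling tested, 2 were lower with age, Slc16a1 (a lactate transporter) at -0.41 and Pygm (glycogen phosphorylase) at -0.27. In adult DH 4 were higher and 1 lower, and in aged DH 6 were higher. Ldha, lactate dehydrogenase, was at 0.42 and 0.28, Slc2a1, the glucose transporter of vessels and glia, at 0.29 and 0.26, and Eno1, an enolase, at 0.14 and 0.16. These stood beside the Aldoc values of 0.13 and 0.15.

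Of 39 other astrocyte genes 3 were higher and 4 lower with age. The connexin genes Gja1 and Gjb6, whose products couple astrocytes, had LFCs of -0.28 and -0.33, and Sparc, a secreted matrix protein, of -0.30. Pla2g7 was higher at 0.59. In adult DH 5 were higher and 1 lower, and in aged DH 3 were higher. The shares called were 17.9% with age, 15.4% in adult DH and 7.69% in aged DH. Over all genes they were 5.99%, 12.7% and 7.29%, so that the dehydration counts were near the background. Sparc, lower with age, was higher in aged DH at 0.27 without overlap between the groups. Htra1, a secreted protease, was higher at both ages at 0.64 and 0.58, and Etnppl was higher in adult DH at 0.50. Of 15 genes of the endfoot and its water handling, Dag1, the dystroglycan that anchors the endfoot complex, was lower with age at -0.16, none was called in adult DH, and Agrn was lower in aged DH at -0.22. Of 6 genes of filament partners, Lmna alone was called, higher in adult DH at 0.14.

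Of 15 other glial transcription factors, Id3 and Sox2 were lower with age at -0.46 and -0.17, and again in adult DH at -0.34 and -0.30, where Stat3 was higher at 0.10. None was called in aged DH, the comparison in which Sox9 was. Of 9 genes of the S100 family and its receptor, none was called with age or in aged DH. In adult DH S100a10 was higher at 0.40, and S100a13 and S100a16 were lower at -0.30 and -0.20. Of the genes linked to reactive astrocytes, 1 of 24 was higher with age, C3 of complement at 1.31, which microglia also make. In adult DH 5 of 25 were higher, among them Lcn2 at 0.78 and Osmr at 0.59, and in aged DH 1 of 24 was, Lcn2 at 1.30. Both had low counts beside the members. Lcn2 had means of 53.68 in adult EH and 90.29 in adult DH, where the groups overlapped. In aged EH and aged DH its means were 47.45 and 117.6. Osmr had 80.57 in adult EH and 121.1 in adult DH. Which cells made them was not measured. Gfap and Vim, which are also read as signs of reactivity, were not called in any of these comparisons. S100a10 and Stat3 stand in the reactive list as well as in another.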

How the data were processed

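The signal values in the 3 tables deposited by the authors are read counts per gene divided by size factors of DESeq2, set within each table, after trimming, alignment with STAR to Rn6 and counting with featureCounts. No version of STAR or featureCounts is named in the sources read. The fold change and p-value columns of the authors' own comparisons were not used. All 30 library columns were used. Every value was a whole multiple of 1 read within 0.1 read (100% of values), and the 10 libraries that stand in 2 tables gave equal reads for every gene.

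Genes with a mean of at least 10 were tested with limma 3.58.1 in R 4.3.3 on log2(value + 1), with moderation that follows the mean and Benjamini-Hochberg adjustment at 0.05. A pseudocount of 1 understates changes of low genes. edgeR 4.0.16 and DESeq2 1.42.0 were run on the recovered reads as alternatives, and edgeR for aged DH against adult DH. SE and intervals by limma are those of the moderated fit. For aged DH against adult DH the intervals were worked back from the LFC and F statistic of the edgeR fit. The scripts were tested on simulated counts. The share of false calls there was near the threshold for limma and edgeR on average and above it for DESeq2. The simulation gave every gene the same spread, drew rats independently and used larger fold changes than those of the members. Its share of false calls therefore need not hold for these data.

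The members and lists were chosen with earlier results of these data known. All members are named, and of other lists up to 4 called genes per comparison, by lowest adjusted p. Some genes of these lists are not reported here by name. The values 5′ of genes come from RefSeq GRCr8, another assembly than that of the counts, so that no gene positions are given for the counts. The symbols Dio2, Snap25, Pecam1, Slco1a4 and Foxj1 of the lists were not matched. Figures were drawn with matplotlib 3.10.9.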

Additional observations from a re-analysis of the deposited data

Results flagged for a closer look

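In adult DH, rat 4 had a Gfap value of 42149, set apart from the other 4 rats, of which the nearest was at 36458. The gap made up 0.754 of the range of the group. This was the only such case among 40 combinations of member and group, and chance would give about 1 in 20. The same rat was the highest of its group for 7 of the 10 members, and had the fewest reads on genes of its group.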

How the results depend on the processing

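Of 1120 fold changes of members under alternatives, 1024 kept their direction and their side of the threshold, 40 lost a call, 15 gained one and 41 turned sign, none of the last with a call. The number of members called with age was 1, and became 2 with centring on the median gene, DESeq2 or edgeR on all 20 rats and 0 without the trend or with an LFC of at least 0.5. In adult DH it was 1, and became 2 with robust moderation, the replicate block or DESeq2 and 0 with the LFC limit. In aged DH it was 3, and became 2 with equal library totals or no filter on low values (Aldoc lost) or with edgeR on all 20 rats (Sox9 lost), 1 without the trend and 0 with the LFC limit. Leaving out 1 rat gave 1 to 2, 1 to 2 and 1 to 3 members in these comparisons, and 1 to 4 in aged DH against adult DH, where it was 3.

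Turned signs all lay near 0. With equal library totals Sox9 was at -0.02 with age, S100b at 0.00 in aged DH and the difference for Aqp4 at 0.00. Without 1 rat, Sox9 ran from -0.02 to 0.07 with age and from -0.11 to 0.02 in adult DH. In aged DH S100b ran from -0.02 to 0.05, Slc1a2 from -0.01 to 0.07 and Vim from -0.16 to 0.04. The difference between the ages ran from -0.05 to 0.05 for Aqp4, from -0.05 to 0.05 for Glul and from -0.01 to 0.04 for Aldoc. Gfap ran from -0.07 to 0.04 in aged DH against adult DH.

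The correlations of deviations of same-numbered rats ran from -0.08 to 0.16. The labels do not say whether same-numbered rats were paired, and pairing was not tested. With the replicate block 1 member was called with age (Glul in place of Aqp4, whose adjusted p by limma was 0.0541), 2 in adult DH (Glul and Aldoc), 3 in aged DH (Gfap, Glul and Sox9), 0 for the difference and 2 in aged DH against adult DH. Under it Sox9 was at 0.02 in adult DH, Slc1a2 at -0.02 in aged DH, the difference for Aqp4 at 0.01 and Gfap at 0.07 in aged DH against adult DH. Over all genes the block gave 987 calls in adult DH in place of 1934, 653 in aged DH in place of 1119 and 1106 in aged DH against adult DH in place of 1666. Without the trend 516 were called with age in place of 921 and 671 in aged DH. An LFC of at least 0.5 left 303, 304 and 218. Leaving out 1 rat gave 594 to 906 calls with age, 1463 to 1743 in adult DH, 678 to 1186 in aged DH, 1074 to 1518 in aged DH against adult DH and 0 to 5 for the difference, the lowest with age without adult EH rat 5 and in aged DH without aged DH rat 5. The cause of these changes was not tested. With 5 rats a group, intervals of about 0.1 to 0.3 on either side limit what could be seen for single members, and Sox9 is the least deeply read.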
